A study of Mus musculus with 22 samples.

Results

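The vascular endothelial growth factor (VEGF) system was followed through 9 genes: the receptor tyrosine kinases Kdr (VEGFR2), Flt1 (VEGFR1) and Flt4 (VEGFR3), the co-receptors Nrp1 and Nrp2, and the ligands Vegfa, Vegfb, Vegfc and Pgf. They were taken by name from the 24454 genes of the count table, and all 9 had a row. The table holds 22 bulk libraries, each from 25 cells of the aorta-gonad-mesonephros region (AGM) of untreated C57BL/6 mouse embryos at E9.5, E10 or E11. Cells positive for VE-Cadherin, the adhesion protein of endothelial junctions, were sorted by the surface proteins CD44 and Kit into 4 populations. The labels call CD44Neg cells endothelial (10 libraries, with 4 from E9.5 and 3 each from E10 and E11) and CD44LoKitNeg cells hemogenic endothelial (6 libraries: 1, 2 and 3). CD44LoKitPos cells are labelled Pre-HSPC, where HSPC is a hematopoietic stem and progenitor cell (3 libraries: 1 at E9.5 and 2 at E10), and CD44High cells are labelled HSPC (3 libraries, all at E11). No stage holds both of the last 2 populations, and a date code in the labels changes with the stage, so stage and date cannot be told apart. The sources used here do not say whether libraries came from separate embryos or litters, so p-values measure the spread between libraries, which may be technical.

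VEGF-A, VEGF-B and placental growth factor bind Flt1, VEGF-A also signals through Kdr, and VEGF-C signals through Flt4 and, after processing, through Kdr. Kdr is required for the first endothelial and blood cells of the embryo, Flt1 holds ligand away from Kdr, and Flt4 is used by veins and growing sprouts before it becomes a lymphatic receptor. Neuropilins hold ligand next to these receptors and also receive class 3 semaphorins, and in developing vessels Nrp1 is typical of arteries and Nrp2 of veins and lymphatics.

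Stretches next to the RefSeq start of 4 genes are shown because, between CD44Neg and CD44LoKitNeg, Kdr and Flt1 kept together while the neuropilins diverged. They are the bases before the start of each gene in RefSeq (GRCm38.p6) that no annotated exon covers, written 5' to 3' on the gene's strand. Capitals mark GGAA or its reverse complement TTCC, the core read by ETS factors, which drive many endothelial genes. The stretches are chr5:75978459-75978705 (minus strand), chr5:147726012-147726261 (minus strand), chr8:128358823-128359072 (plus strand) and chr1:62703067-62703284 (plus strand). GENCODE also lists a non-coding Nrp1 transcript that starts earlier, so the Nrp1 stretch lies inside the GENCODE span of that gene, in an intron of this transcript.
Kdr: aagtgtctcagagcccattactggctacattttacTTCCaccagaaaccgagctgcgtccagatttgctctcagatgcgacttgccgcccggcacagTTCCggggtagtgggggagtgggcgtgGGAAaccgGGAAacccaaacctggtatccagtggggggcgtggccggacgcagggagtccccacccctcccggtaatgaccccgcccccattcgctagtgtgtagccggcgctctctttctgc
Flt1: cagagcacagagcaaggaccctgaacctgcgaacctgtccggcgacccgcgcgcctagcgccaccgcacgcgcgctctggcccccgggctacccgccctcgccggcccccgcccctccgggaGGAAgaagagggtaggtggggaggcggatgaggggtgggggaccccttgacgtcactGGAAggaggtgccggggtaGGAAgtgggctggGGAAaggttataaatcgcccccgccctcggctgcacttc
Nrp1: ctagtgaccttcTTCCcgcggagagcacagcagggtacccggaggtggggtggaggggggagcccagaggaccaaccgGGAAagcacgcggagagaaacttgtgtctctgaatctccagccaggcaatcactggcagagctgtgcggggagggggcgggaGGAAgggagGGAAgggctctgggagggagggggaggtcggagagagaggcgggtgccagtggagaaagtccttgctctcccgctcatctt
Nrp2: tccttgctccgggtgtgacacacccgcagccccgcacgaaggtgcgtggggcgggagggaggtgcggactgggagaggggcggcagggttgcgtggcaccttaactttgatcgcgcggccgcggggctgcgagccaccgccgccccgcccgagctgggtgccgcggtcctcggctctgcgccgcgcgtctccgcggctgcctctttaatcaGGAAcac
In the full 300-base RefSeq windows the core starts 5 times at Kdr, 4 times at Flt1, 5 times at Nrp1 and 1 time at Nrp2. It is present in 96% of all 32851 promoter windows of that length (median 3 starts), and 46.3% of them hold 4 or more starts, so the letters are a description only. On GRCm38 the genes span, by GENCODE, chr5:75932827-75978458 (Kdr), chr5:147561604-147726011 (Flt1), chr11:49609263-49652739 (Flt4), chr8:128358604-128503363 (Nrp1), chr1:62703285-62818695 (Nrp2), chr17:46016993-46032369 (Vegfa), chr19:6982473-6987651 (Vegfb), chr8:54077606-54187096 (Vegfc) and chr12:85166635-85177790 (Pgf). The counts are per gene over the exons, so membrane and soluble forms of Flt1 or of the neuropilins were not separated, and of the other counted genes Mir1903 shares 80 exonic bases with Nrp1.

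Libraries held 3912350 to 8657546 counts (median 5758382.5), of which 1.92% to 23.9% fell on the ribosomal RNA gene Rn45s. Both differed by population. Median totals were 5098507 in CD44Neg, 7126341.5 in CD44LoKitNeg, 6323545 in CD44LoKitPos and 4453106 in CD44High. In the same order Rn45s took 1.92% to 19.4%, 7.29% to 19.2%, 6.82% to 9.26% and 16.6% to 23.9%. Levels are given as normalized CPM, which is counts scaled to library size after scaling all 22 libraries by edgeR's TMM factors, and 3 counts, the limit that a count of 0 allows, equal 0.348 to 0.816 CPM in a library. Cd44 averaged 29.9 CPM in CD44Neg and 254, 257 and 268 CPM in CD44LoKitNeg, CD44LoKitPos and CD44High, and Kit was highest in CD44LoKitPos (230 CPM, against 46.9 to 75.9 in the others). Cd44 counts thus separated CD44Neg from the rest, but not CD44High from CD44LoKitPos (log2 fold change 0.06, adjusted p = 0.995, edgeR's quasi-likelihood test) or from CD44LoKitNeg (0.08, adjusted p = 0.941). The summed level of 11 endothelial markers was 4497 to 8083 CPM in CD44Neg, 4629 to 11990 in CD44LoKitNeg, 1264 to 2558 in CD44LoKitPos and 72.8 to 170 in CD44High. In the 3 CD44High libraries Cdh5, which encodes VE-Cadherin, had 0 counts, all 11 macrophage markers had counts, and their sum was 2036 to 5429 CPM against 0 to 114 in every other library. Mesenchyme markers (12 genes) summed to 0.465 to 108 CPM in CD44Neg, 148 to 293 in CD44LoKitNeg, 138 to 289 in CD44LoKitPos and 0.272 to 972 in CD44High.

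Over all stages Kdr and Flt1 overlapped between both endothelial populations, although at E10 both lay lower in CD44LoKitNeg, and they were lower in CD44LoKitPos and almost absent from CD44High. Flt4 and Nrp2 were lower in CD44LoKitNeg than in CD44Neg, while Nrp1, Vegfc and Vegfa were higher there. Vegfb and Pgf were called in no comparison between populations. Per kilobase of exon, the mean level in CD44Neg ran in the order Kdr (49.7 CPM per kb), Nrp1 (40.9), Flt4 (37.2), Vegfc (24.7), Flt1 (22.6), Nrp2 (6.87), Vegfb (3.30), Vegfa (0.782) and Pgf (0.0640). In CD44LoKitNeg it ran Nrp1 (118), Vegfc (82.9), Kdr (43.1), Flt1 (22.5), Flt4 (9.71), Vegfa (6.29), Vegfb (3.19), Pgf (1.11) and Nrp2 (0.171). Library ranges of neighbours in these orders overlapped except between Flt1 and Nrp2 in CD44Neg. In CD44LoKitPos the order was led by Vegfc (13.5), Nrp1 (12.7), Kdr (5.27), Vegfb (5.10) and Flt1 (3.80), whose ranges all overlapped, and in CD44High by Vegfb (9.56) and Nrp1 (7.49), which overlapped too, with the other 7 genes at a mean of 0.809 or less. In bulk libraries fewer cells expressing a gene and less RNA per cell cannot be told apart.

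**Figure D1:**
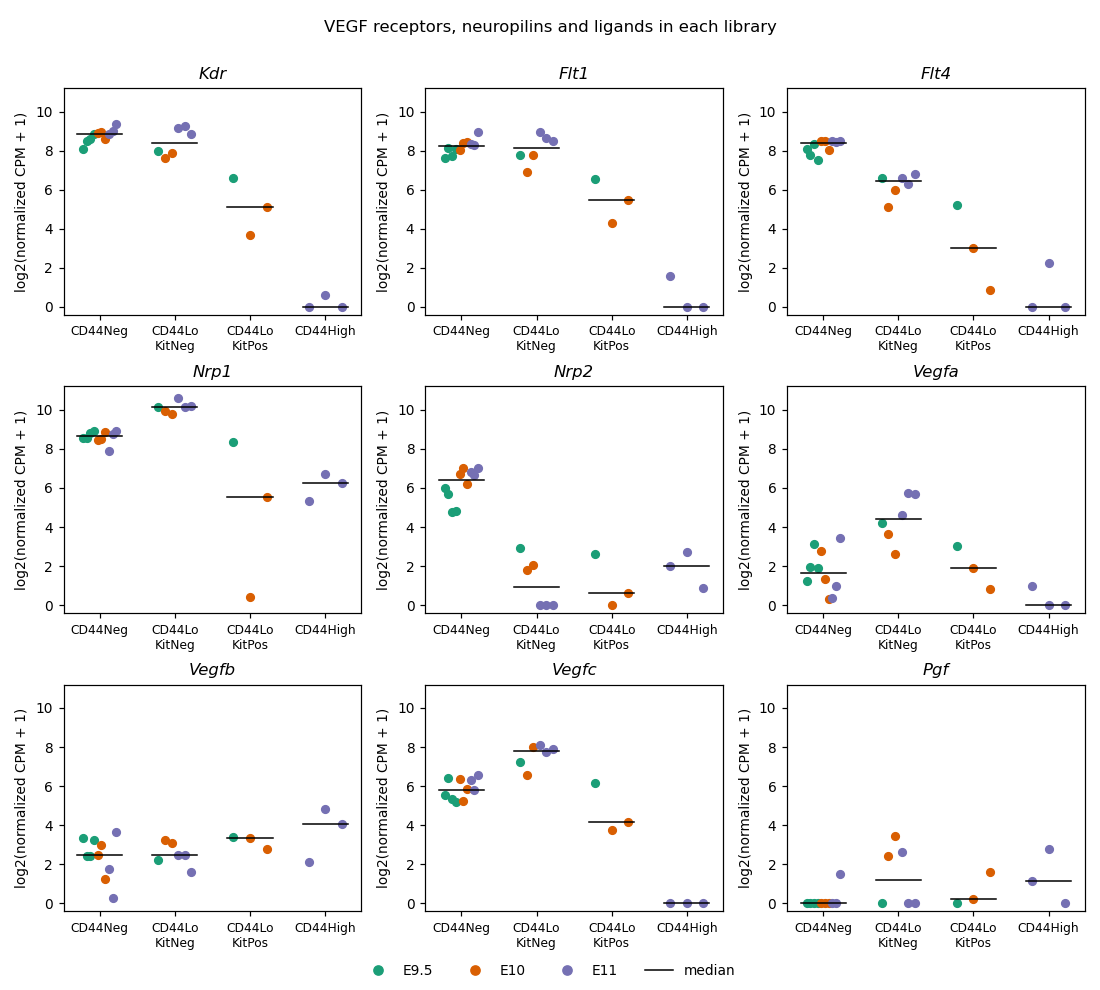
Each panel shows 1 gene as log2 of normalized CPM plus 1 in each of the 22 libraries (points, coloured by stage) with the median of each population (line). Kdr and Flt1 stay between 121 and 656 CPM in CD44Neg and CD44LoKitNeg and reach 1.98 CPM at most in CD44High, Nrp1 is highest in CD44LoKitNeg, and Nrp2 lies at 26.4 CPM or more in CD44Neg and at 6.49 CPM or less elsewhere.

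The first comparison asks how endothelial cells sorted as low for surface CD44 differ from those sorted as negative. Of the 8 members tested in CD44LoKitNeg against CD44Neg, 5 passed an adjusted p of 0.01, where 10.2% of all 11022 genes tested did. Nrp1, Vegfc and Vegfa were higher, as were 4.94% of genes, and Flt4 and Nrp2 were lower, as were 5.23%. The median log2 fold change of the 8 members was -0.02, against 0.01 over all genes tested. The ranges of the populations did not overlap for Nrp1, Flt4 and Nrp2, and 5.58% of all genes tested were separated in this way.

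Among the receptors, Kdr ranged from 271 to 656 CPM in CD44Neg (median 465, n = 10) and from 196 to 609 CPM in CD44LoKitNeg (median 357, n = 6). Flt1, the decoy receptor, ranged from 200 to 498 CPM (median 301) and from 121 to 492 CPM (median 292). Both sets overlapped over most of their range, with log2 fold changes of -0.20 (SE 0.24) for Kdr and 0.00 (SE 0.25) for Flt1 and adjusted p of 0.628 and 0.997 (quasi-likelihood test of edgeR, p adjusted by Benjamini-Hochberg). Flt4 ranged from 186 to 367 CPM in CD44Neg (median 335) and from 33.9 to 111 CPM in CD44LoKitNeg (median 87.3). Every CD44LoKitNeg library lay below every CD44Neg library, and Flt4 was 3.81-fold lower (log2 fold change -1.93, SE 0.24, adjusted p = 1.71e-05 by edgeR's quasi-likelihood test). Among libraries of these 2 populations, Flt4 and Kdr counts were nearest to equal in CD44Neg replicate 4 (1423 and 1430). The log2 ratio of Flt4 to Kdr was -1.32 to -0.01 in CD44Neg (median -0.51) and -2.94 to -1.42 in CD44LoKitNeg (median -2.28). Of the summed level of the 3 receptors per kilobase, Flt4 made up 24.1% to 42.2% in CD44Neg and 8.97% to 20.7% in CD44LoKitNeg.

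The neuropilins differed in opposite directions. Nrp1 ranged from 236 to 481 CPM in CD44Neg (median 406) and from 889 to 1582 CPM in CD44LoKitNeg (median 1130), without overlap. It was 2.89-fold higher in CD44LoKitNeg (log2 fold change 1.53, SE 0.15, adjusted p = 2.6e-06 by edgeR's quasi-likelihood test). With all 22 libraries in the fit its size stayed at 1.52 (SE 0.50) and the adjusted p became 0.0375 by edgeR's quasi-likelihood test. Nrp2 ranged from 26.4 to 131 CPM in CD44Neg (median 85.6) and from 0 to 6.49 CPM in CD44LoKitNeg (median 1.26), again without overlap. It was 39.3-fold lower (log2 fold change -5.30, SE 0.81, adjusted p = 1.56e-04 by edgeR's quasi-likelihood test). By reads, Nrp1 was nearly the only neuropilin of CD44LoKitNeg. Its share of the reads of both genes was 67.6% to 94.6% in CD44Neg (median 83.4%) and 99.4% to 100% in CD44LoKitNeg (median 99.9%).

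**Figure D2:**
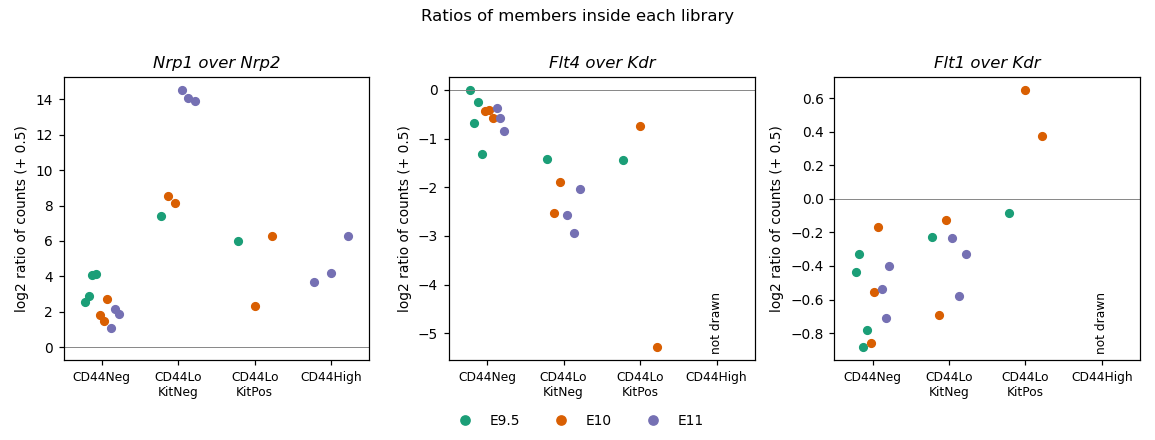
The log2 ratio of counts (0.5 added to each) of Nrp1 over Nrp2, Flt4 over Kdr and Flt1 over Kdr is drawn for each library (points, coloured by stage); the receptor ratios are not drawn for CD44High, where receptor counts were at or near 0. The Nrp1 to Nrp2 ratio runs from 1.06 to 4.13 in CD44Neg and from 7.43 to 14.52 in CD44LoKitNeg. The Flt1 to Kdr ratio stays between -0.88 and -0.12 in both of these populations and runs from -0.09 to 0.65 in CD44LoKitPos.

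Of the ligands, Vegfc ranged from 35.4 to 93.4 CPM in CD44Neg (median 54.9) and from 93.0 to 276 CPM in CD44LoKitNeg (median 224), touching only at the ends of the ranges. It was 3.38-fold higher in CD44LoKitNeg (log2 fold change 1.76, SE 0.25, adjusted p = 9.01e-05 by edgeR's quasi-likelihood test). Vegfa was scarce in CD44Neg, at 0.223 to 9.91 CPM (median 2.15), and ranged from 5.14 to 53.3 CPM in CD44LoKitNeg (median 20.8), with some overlap. Its log2 fold change of 3.00 (SE 0.69) passed with an adjusted p of 0.00416, and lost the call without CD44LoKitNeg replicate 12 (2.68, adjusted p = 0.0163) or replicate 13 (2.73, adjusted p = 0.0152), or with stage as a covariate (2.62, adjusted p = 0.0163), all by edgeR's quasi-likelihood test. Vegfb showed no detectable difference at this depth (0.195 to 11.5 against 2.01 to 8.39 CPM, adjusted p = 0.976 by edgeR's quasi-likelihood test). Pgf did not pass the filter on low counts and was not tested: it had 0 counts in 9 of 10 CD44Neg libraries and in 3 of 6 CD44LoKitNeg libraries, where the other 3 held 4.36, 5.24 and 9.74 CPM. Of the summed level of the 4 ligands per kilobase, Vegfc made up 71.3% to 98.4% in CD44Neg and 80.1% to 91.7% in CD44LoKitNeg.

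The differences were also read inside each stage. At E9.5 the 1 CD44LoKitNeg library held 1128 CPM of Nrp1, 6.49 of Nrp2, 95.4 of Flt4 and 151 of Vegfc, where the 4 CD44Neg libraries held 370 to 476, 26.4 to 62.9, 186 to 325 and 35.4 to 83.8. The CD44LoKitNeg libraries of E10 and E11 lay on the same side of the CD44Neg libraries of their stage for these genes. At E11 alone (3 against 3, 1.06% of 11942 genes called) Nrp2 was the only member called, with 0 counts in all 3 CD44LoKitNeg libraries and at least 826-fold less than the 115 CPM of CD44Neg, taking 3 counts over the 3 libraries as the floor. The E11 log2 fold changes of the other 4 were 1.82 for Nrp1 (adjusted p = 0.0208), 1.74 for Vegfc (0.0172), -1.84 for Flt4 (0.131) and 3.53 for Vegfa (0.136), by edgeR's quasi-likelihood test. At E10 alone (2 against 3, 0.0169% of 11855 genes called) no member passed (adjusted p 0.0278 to 0.683, edgeR's quasi-likelihood test), with log2 fold changes of 1.32 for Nrp1, 1.64 for Vegfc, -2.68 for Flt4, 1.79 for Vegfa and -5.07 for Nrp2. Kdr and Flt1 had opposite signs in these fits, at 0.06 and 0.21 for E11 and -0.996 and -0.83 for E10, and neither passed.

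**Figure D3:**
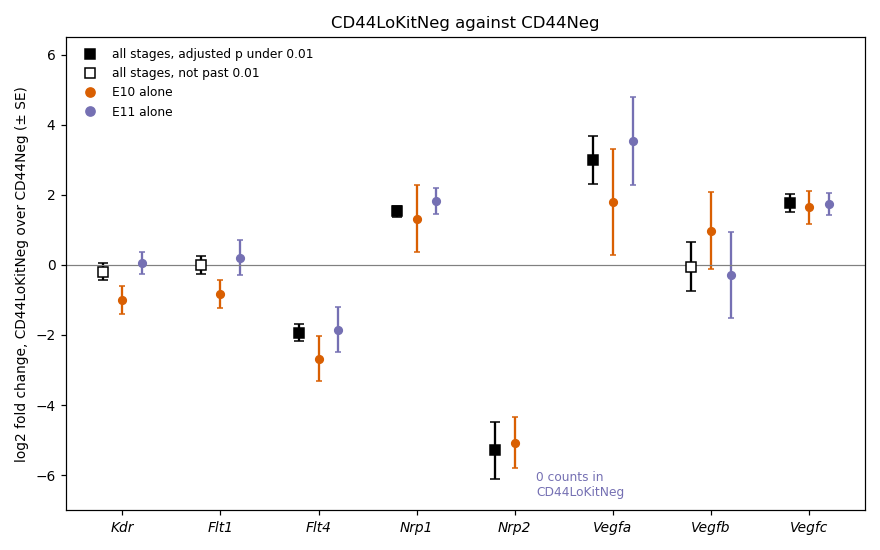
Log2 fold changes of CD44LoKitNeg over CD44Neg (error bars, SE of the fit) are shown for the 8 tested members over all stages (squares, filled where the adjusted p was under 0.01) and within E10 and E11 (circles); Nrp2 at E11 is not drawn because its CD44LoKitNeg libraries held 0 counts. Nrp1, Vegfa and Vegfc lie above 0 and Flt4 and Nrp2 below 0 in each fit, while Kdr and Flt1 lie near 0 over all stages.

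Genes that act next to these receptors were read from lists beside the 10.2% background. None of 23 genes of the VEGF receptor signal relay (kinases, adaptors and effectors) was called by edgeR, with 6 at an unadjusted p under 0.05, a level that 32.6% of all genes reached. Of 16 receptor partners, 4 were higher and 1 lower: Efnb2, an ephrin that aids receptor uptake, had a log2 fold change of 2.03, Cdh5 1.48, the semaphorin receptor Plxna2 1.47 and Ptprb, a phosphatase of endothelial junctions, 1.79 (adjusted p 4.22e-07 to 0.000873, edgeR's quasi-likelihood test). The lower gene, named after its value was seen, was the phosphatase Ptpn1 (-0.99). Of 13 VEGF-inducible genes, 2 were lower and 0 higher: Apln, a peptide made by the tips of sprouting vessels, averaged 25.0 CPM in CD44Neg and had 0 counts in CD44LoKitNeg, and the potassium channel subunit Kcne3 averaged 211 and 3.08 CPM. Of 8 oxygen-sensing genes upstream of Vegfa, Epas1 alone was called, at 299 against 79.1 CPM (log2 fold change 1.93, adjusted p = 3e-04, edgeR's quasi-likelihood test). Of 16 endothelial transcription factors, 3 were higher and 3 lower, among them Ets1 (-1.79), Ets2 (-1.26), Gata2 (1.60) and Nr2f2, a regulator of vein identity (-4.01). Arterial markers were higher for 6 of 10 genes tested and venous markers lower for 2 of 4, beside the higher Nrp1 and lower Nrp2 and Flt4. The authors state that cardinal veins stay with the dissected AGM and hold only CD44Neg cells. They propose that CD44Neg mixes cells of the aorta and of these veins. The part of such a mixture in these differences was not tested. Neither of the 2 tested class 3 semaphorins nor of the 2 tested lymphatic markers was called by edgeR, with 0 of each at an unadjusted p under 0.05. The mesenchyme sums given above were higher in every CD44LoKitNeg library than in any CD44Neg library. So were the blood sums (108 to 389 against 19.6 to 49.7 CPM) and megakaryocyte sums (15.3 to 37.3 against 0.186 to 7.15 CPM). Only 3 to 6 of 12 mesenchyme markers had a count in a CD44LoKitNeg library. Gene by gene, 0 of 4 tested mesenchyme markers were called, and 2 of 6 blood and 1 of 3 megakaryocyte markers were called higher. None of these tested markers separated the populations without overlap, where 5.58% of all genes tested did. Neural marker sums were 121 to 708 CPM in CD44LoKitNeg and 92.2 to 154 CPM in CD44Neg. They were highest in CD44LoKitNeg replicates 12 and 13 (708 and 406 CPM), the libraries without which Vegfa lost its call. Of 7 neural markers, 3 had a count in replicate 12 and 2 in replicate 13. Of the 3 tested, 1 was called higher and 1 lower in CD44LoKitNeg (median log2 fold change -0.95). The part of these marker sums in the results was not tested.

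Stage was followed in CD44Neg, the population with 3 or more libraries at each time. No member was called between E9.5 and E10, E10 and E11 or E9.5 and E11 by edgeR's quasi-likelihood test, where 0.0178%, 0% and 0.684% of 11250 genes were, and 1, 0 and 4 of 8 members reached an unadjusted p under 0.05, as did 15.2%, 8.68% and 17.1% of genes. DESeq2's Wald test called Nrp2 in the first and last of these and no other member. Nrp2 held 62.9, 50.1, 26.4 and 27.1 CPM at E9.5, 103, 129 and 71.6 at E10 and 113, 99.6 and 131 at E11. All E10 and E11 libraries lay above all E9.5 libraries (15.2% of genes were separated between E9.5 and E10), with a log2 fold change from E9.5 to E11 of 1.48 (SE 0.32, adjusted p = 0.0204 by edgeR's quasi-likelihood test). Kdr held 271, 358, 387 and 462 CPM at E9.5, 481, 492 and 392 at E10 and 469, 517 and 656 at E11. Flt4 held 270, 223, 325 and 186 CPM at E9.5, 358, 367 and 261 at E10 and 365, 344 and 364 at E11. The E11 libraries of Kdr, Flt1, Flt4 and Nrp2 lay above all E9.5 libraries, with log2 differences of 0.59, 0.67, 0.53 and 1.48, while 20.5% of genes tested were separated in 1 direction or the other. The summed endothelial markers of the same libraries were 4497 to 5696 CPM at E9.5 and 7344 to 8083 CPM at E11, with 4 of 11 called higher and a median log2 fold change of 0.80, and their part in the receptor levels was not tested. Called higher at E11 were 1 of 24 relay genes, Plcg1 (log2 fold change 2.15), 1 of 15 receptor partners, Cav1 (4.54), and 2 of 16 transcription factors, Elk3 and Sox18, with 0 of 13 VEGF-inducible and 0 of 8 oxygen-sensing genes called by edgeR (4 and 3 at an unadjusted p under 0.05). Nrp1 overlapped at all stages (log2 difference -0.10, SE 0.22), as did the ligands.

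In CD44LoKitNeg the same receptors were read between E10 and E11. Kdr held 256 CPM in the E9.5 library, 196 and 236 at E10 and 577, 609 and 459 at E11. It was 2.56-fold higher at E11 than at E10 (log2 fold change 1.36, SE 0.21, adjusted p = 0.00479 by edgeR's quasi-likelihood test), where 0.621% of 12403 genes were called. The fit held 11 libraries, 6 of them CD44Neg, so its spread was shared with that population. The call was lost without replicate 11, 12, 15 or 16 (log2 fold changes 1.23 to 1.49, adjusted p 0.0153 to 0.0619 by edgeR's quasi-likelihood test). Flt1 held 218 CPM at E9.5, 121 and 217 at E10 and 492, 407 and 365 at E11, a log2 difference of 1.33 that missed the threshold (adjusted p = 0.0274, edgeR's quasi-likelihood test). Both receptors were lower at E9.5 and E10 than at E11. From E10 to E11, 7 of 9 members did not overlap, beside 31.9% of all genes in this comparison of 2 and 3 libraries. The summed endothelial markers of these libraries went from 4946 and 6436 CPM at E10 to 9966 to 11990 CPM at E11 (9 of 11 without overlap, 1 called, median log2 fold change 0.996), the blood sums were 389 and 217 CPM at E10 and 108 to 158 CPM at E11, and the part of either was not tested. Of 18 receptor partners 2 were called, Ptprb (1.79) and Plxnd1 (1.30), both higher at E11. Nrp2 went the other way, from 6.49 CPM at E9.5 and 2.52 and 3.11 at E10 to 0 counts in all 3 E11 libraries, at least 20.3-fold lower than at E10. It was called (adjusted p = 0.00115, edgeR's quasi-likelihood test) from 15 and 23 counts in the E10 libraries.

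Whether the difference between the 2 endothelial populations itself changed from E10 to E11 was tested by an interaction term. No member was called by edgeR's quasi-likelihood test (0.00806% of 12403 genes were), and 4 of 9 reached an unadjusted p under 0.05, as did 10.7% of genes. Nrp2 was nearest, with an adjusted p of 0.0116 by edgeR's quasi-likelihood test and 6.54e-05 by DESeq2's Wald test, since it lay between 71.6 and 131 CPM in CD44Neg at both stages and went to 0 in CD44LoKitNeg. Kdr in CD44LoKitNeg lay below every CD44Neg library of its stage at E9.5 and E10, and at E11 the populations overlapped at 459 to 609 and 469 to 656 CPM (interaction 1.06 on the log2 scale, SE 0.27, adjusted p = 0.181 by edgeR's quasi-likelihood test).

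**Figure D4:**
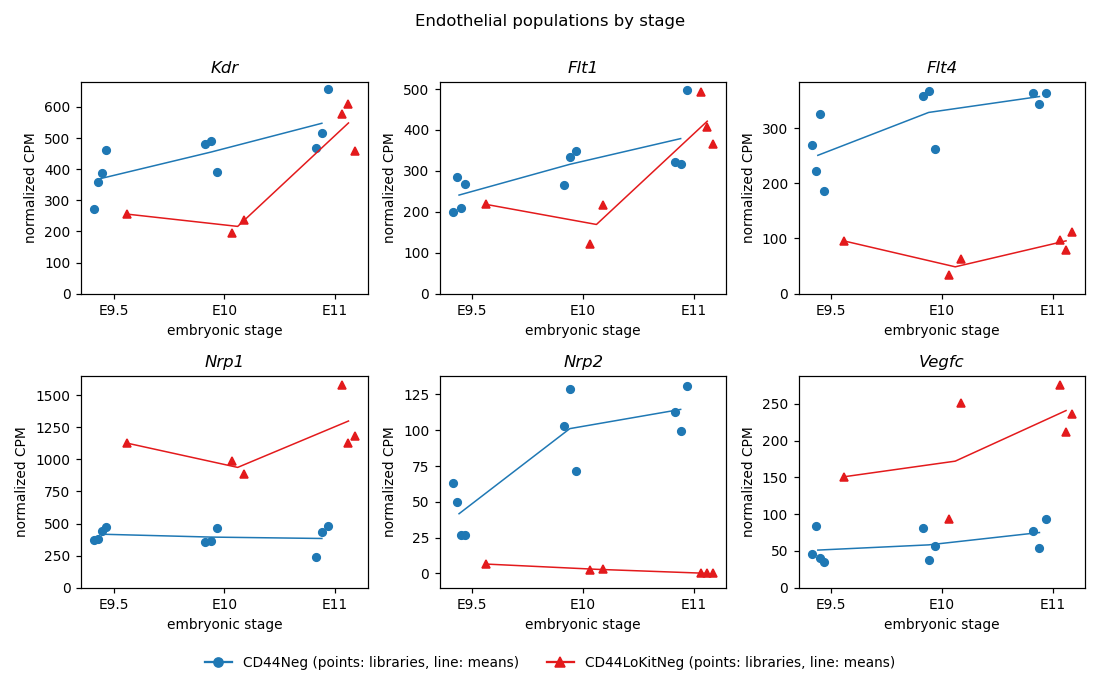
Normalized CPM of 6 genes is plotted against stage for CD44Neg (circles) and CD44LoKitNeg (triangles), with lines through the means. Kdr and Flt1 meet at E11 after lying lower in CD44LoKitNeg at E10, while Nrp1 and Vegfc stay above, and Flt4 and Nrp2 below, the CD44Neg libraries at all 3 stages.

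The next comparison sets cells sorted as positive for Kit against those sorted as negative, both with low CD44. In CD44LoKitPos against CD44LoKitNeg, 3 of 9 members were called, all lower, where 4.26% of 12949 genes were called and 1.71% were lower. Kdr held 97.1 CPM in the E9.5 library and 11.9 and 33.8 in the E10 libraries, all below the 196 CPM of the lowest CD44LoKitNeg library (8.17-fold lower, log2 fold change -3.03, SE 0.53, adjusted p = 0.00112 by edgeR's quasi-likelihood test). Flt1 held 91.5, 18.8 and 43.8 CPM and was 5.91-fold lower (log2 fold change -2.56, SE 0.55, adjusted p = 0.00457 by edgeR's quasi-likelihood test). With stage as a covariate Flt1 missed the threshold (-2.11, adjusted p = 0.0104, edgeR's quasi-likelihood test). Vegfc held 70.3, 12.3 and 16.9 CPM and was 6.12-fold lower (log2 fold change -2.61, SE 0.52, adjusted p = 0.00334 by edgeR's quasi-likelihood test). The E9.5 library was the highest of the 3 for each of these genes. They and Nrp1 did not overlap between the populations, where 16.9% of all genes did not. In the same comparison 6 of 11 endothelial markers were lower (10 without overlap), 2 of 10 arterial markers were lower (10 without overlap), and 3 of 10 blood and 2 of 7 megakaryocyte markers were higher, and their part in the receptor and ligand levels was not tested.

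By the SD of its CPM (176), Nrp1 varied most of the 9 members inside CD44LoKitPos. It held 326 CPM in the E9.5 library and 0.310 and 46.0 CPM in the E10 libraries. Its log2 fold change of -3.21 missed the threshold (SE 0.84, adjusted p = 0.0139, edgeR's quasi-likelihood test). Without the E9.5 library, replicate 19, Nrp1 and Flt4 were called as well (-5.65, adjusted p = 2.83e-04, and -4.38, adjusted p = 0.00139, edgeR's quasi-likelihood test), giving 5 members. Without replicate 18 no call was left (Kdr, Flt1 and Vegfc at adjusted p 0.0109 to 0.0281, edgeR's quasi-likelihood test), and without replicate 17 Kdr and Nrp1 were. That E9.5 library also had the highest endothelial sum of the population (2558 against 1264 and 1680 CPM) and the lowest blood marker sum (559 against 1531 and 1342 CPM), and the part of this in the result was not tested. Flt4 held 35.9, 7.13 and 0.800 CPM, Nrp2 5.13, 0 and 0.534, Vegfa 7.09, 2.79 and 0.800, Vegfb 9.65, 9.15 and 5.74, and Pgf 0, 0.155 and 2.00. These 5 genes overlapped CD44LoKitNeg, and at E10 alone (2 against 2, 1.19% of genes called) Kdr was the only member called (-3.28, adjusted p = 0.00658, edgeR's quasi-likelihood test).

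Against CD44Neg, a comparison that shares the CD44LoKitPos libraries with the last, CD44LoKitPos was lower for 4 members (3.48% of genes called, 1.41% lower). Kdr had a log2 fold change of -3.24, Flt1 -2.57, Flt4 -4.39 and Nrp2 -5.42, with adjusted p of 3.31e-04, 0.00318, 0.00117 and 0.0099 (edgeR's quasi-likelihood test). The Nrp2 call stood at the threshold and was lost when any of 9 CD44Neg libraries or of CD44LoKitPos replicates 17 and 18 was left out (adjusted p 0.0112 to 0.0788, edgeR's quasi-likelihood test), and with stage as a covariate (-5.80, adjusted p = 0.0118). Without replicate 17 Kdr was the 1 member still called and without replicate 18 Kdr and Flt4 were, whereas without replicate 19 Nrp1 and Vegfc joined, giving 6. At E10 alone (2 against 3, 2.18% called) Kdr, Flt1, Flt4 and Nrp2 were called, at -4.28, -3.31, -6.37 and -8.36. Vegfc, by contrast, lay at 12.3 to 70.3 CPM beside 35.4 to 93.4 CPM in CD44Neg and was not called (log2 fold change -0.86, adjusted p = 0.287, edgeR's quasi-likelihood test); its call was against CD44LoKitNeg. Against CD44LoKitNeg, where 4.26% of all genes were called and 1.71% were lower, 4 of 25 relay genes were lower and 0 higher, the endothelial nitric oxide synthase Nos3 (-3.05), the kinases Yes1 (-1.79) and Fyn (-1.16) and the adaptor Bcar1 (-2.99). Of 18 receptor partners 5 were lower, with Dab2, an endocytic adaptor, at -3.44, Cdh5 at -2.51, Ptprb at -3.48 and Plxnd1, a semaphorin receptor, at -2.76. None of 13 VEGF-inducible genes, 8 oxygen-sensing genes, 4 semaphorins or 16 endothelial transcription factors was called in that comparison by edgeR, with 6, 2, 1 and 7 of them at an unadjusted p under 0.05, as were 27.2% of all genes.

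CD44High held few or no counts of 5 members. Kdr had 0, 2 and 0 counts in the 3 libraries, Flt1 10, 0 and 0, Flt4 0, 14 and 0, Vegfa 5, 0 and 0, and Vegfc 0 in all. Over the pooled counts, Kdr was 2840-fold more frequent in CD44Neg (95% counting interval 786 to 23400, exact), 2450-fold in CD44LoKitNeg (677 to 20200) and 295-fold in CD44LoKitPos (81.6 to 2440), where the intervals cover counting error only. Vegfc was at least 251-fold lower than in CD44Neg, 845-fold lower than in CD44LoKitNeg and 138-fold lower than in CD44LoKitPos, with 3 counts over the 3 libraries as the floor. Both genes and Flt1 were called in each of these comparisons (adjusted p 3.92e-09 to 1.39e-05 by edgeR's quasi-likelihood test). They were the 3 members called against CD44LoKitPos, where 3.01% of genes were called and 2.23% were lower, and without CD44LoKitPos replicate 18 or CD44High replicate 21 Flt4 was called as well (adjusted p = 0.00244 and 0.00172, edgeR's quasi-likelihood test). Stage and population coincide there, with CD44LoKitPos from E9.5 and E10 and CD44High from E11.

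Against CD44LoKitNeg, 6 members were lower in CD44High (16% of genes called, 8.17% lower): Flt4 (log2 fold change -6.07), Nrp1 (-3.97) and Vegfa (-6.15) besides the 3 just named. At E11 alone (15.5% called) these 6 were called lower, at -6.44 for Flt4, -4.27 for Nrp1 and -6.86 for Vegfa, and Nrp2 was called higher, from 0 counts in CD44LoKitNeg (adjusted p = 0.00204, edgeR's quasi-likelihood test). In the fit of all libraries Nrp1 lost the call without CD44High replicate 20 or 22 (adjusted p = 0.0128 and 0.0104), and Vegfa without replicate 21 or 22 (0.0207 and 0.0227), by edgeR's quasi-likelihood test. Against CD44Neg, 5 were lower (14.4% called, 7.25% lower): Kdr, Flt1, Vegfc, Flt4 (-8.00) and Nrp2 (-4.69, adjusted p = 0.0074 by edgeR's quasi-likelihood test), and Nrp2 lost the call without any 1 of the CD44High libraries (0.0197 to 0.0398) or of 7 CD44Neg libraries (0.01 to 0.0118), and with stage as a covariate (-4.42, adjusted p = 0.0137).

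Nrp1 was measured in all 3 CD44High libraries, at 38.8, 106 and 75.1 CPM in replicates 20, 21 and 22. All 3 lay below the lowest CD44Neg library (236 CPM), where 18.8% of genes were separated in 1 direction or the other, and inside the range of CD44LoKitPos. The log2 fold change was -2.45 against CD44Neg (adjusted p = 0.024) and -0.76 against CD44LoKitPos (adjusted p = 0.736, edgeR's quasi-likelihood test). The latter turned to 1.63 without the E9.5 CD44LoKitPos library (adjusted p = 0.308, edgeR's quasi-likelihood test). In the same order these libraries held macrophage marker sums of 2036, 5429 and 4589 CPM and mesenchyme sums of 972, 610 and 0.272 CPM, and the part of either in the Nrp1 level was not tested. At E11 alone (8.47% called) Nrp1 was lower than in CD44Neg (-2.45, adjusted p = 0.00127, edgeR's quasi-likelihood test).

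Vegfb was detected in all 22 libraries, with 3.37, 26.9 and 15.8 CPM in CD44High against 0.195 to 11.5 CPM in CD44Neg. Its log2 fold changes of 1.53 against CD44Neg and 1.58 against CD44LoKitNeg did not pass (adjusted p = 0.146 and 0.16, edgeR's quasi-likelihood test). Pgf held 1.19, 5.86 and 0 CPM and Nrp2 2.97, 5.59 and 0.816 CPM in CD44High, from 28 and 39 counts in all. Nrp2 was thus at least 22.5-fold above the E11 CD44LoKitNeg libraries.

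The lists were also read in CD44High against CD44LoKitNeg, where 16% of all genes were called, 8.17% lower and 7.79% higher. Of 18 receptor partners, 7 were lower and 1 higher: Cdh5 and Ptprb had 0 counts and Plxnd1 (-4.90) and Plxna2 (-3.72) were lower. The higher gene, named after its value was seen, was Dab2, at 527 against 109 CPM (log2 fold change 2.27, adjusted p = 4.5e-05, edgeR's quasi-likelihood test). Of 25 relay genes 8 were lower and 0 higher, including Nos3 (-6.54), Yes1 (-3.09), Bcar1 (-5.38) and Ptk2 (-2.41), the focal adhesion kinase. Of 13 VEGF-inducible genes 3 were lower, the Notch ligand Dll4 (0 counts), the protease Adamts1 (-3.75) and the angiogenesis inhibitor Vash1 (-3.43). Of 8 oxygen-sensing genes Epas1 alone was lower (0.462 against 299 CPM), and of 4 tested semaphorins Sema3a and Sema3f were lower, with 0 counts in CD44High. Of 16 endothelial transcription factors 8 were lower, with Sox18, Sox7 and Sox17 at 0 counts and Elk3 at -3.79, and the higher one, also named after its value was seen, was Mef2c (1.35). The CD44High libraries had lower endothelial and higher macrophage marker sums than all other libraries, and the part of this in the counts of these lists was not tested.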

How the data were processed

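The deposited table holds raw counts of reads per gene, which the authors made before deposit: FASTX clipped adaptors, RNA STAR mapped the Smart-seq2 reads of polyadenylated RNA and htseq-count counted them, while the submitters' processing notes name HTSeq, FastQC and the build mm10. Tool versions, annotation and strand setting are not given in the sources used here. All 22 columns were matched to labelled libraries (0 left unassigned), which held 3912350 to 8657546 counts. In 20 pairs of replicates chi-square per degree of freedom over genes was 17 to 85.2, above counting noise, so no libraries were merged, which does not show that they had separate origins.

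Counts were fitted with edgeR 4.0.16 and limma 3.58.1 in R 4.3.3: filterByExpr (minimum count 10, total 15), TMM scaling, quasi-likelihood F tests and Benjamini-Hochberg adjustment over all genes tested, called at an adjusted p of 0.01. The 2 endothelial populations were compared in their 16 libraries, comparisons with CD44LoKitPos or CD44High in a fit of all 22, stages within CD44Neg in its 10, and stages within CD44LoKitNeg and the stage interaction in the 11 libraries of both endothelial populations at E10 and E11. Alternatives were DESeq2 1.42.0 (its size factors and its Wald test), no filter, an adjusted p of 0.05, Rn45s left out, stage as a covariate, all 22 libraries, single stages and each library left out. The scripts were tested on simulated data. Gene spans come from GENCODE vM21 and promoters from RefSeq, and figures were drawn with matplotlib 3.10.9 in Python 3.11.15. Text names the 9 members, Cd44 and Kit, the 3 genes closest to each member in log2 CPM (prior count 2), and up to 4 called genes of each list with the smallest adjusted p. Ptpn1, Dab2 (in CD44High), Mef2c and Figf fall outside this rule and were named after their values were seen. The members and lists were chosen with earlier results of these data known. Intervals and floors cover counting error only.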

Additional observations from a re-analysis of the deposited data

Results flagged for a closer look

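In 18 groups, the 9 genes in the 10 CD44Neg and in the 6 CD44LoKitNeg libraries, 2 values stood apart from the others of their group by Dixon's criterion, which chance meets in about 1 of 20 groups. Flt1 in CD44Neg replicate 3 was 497.9 CPM, with the next library at 348.9 CPM. Nrp1 in CD44Neg replicate 1 was 235.8 CPM, with the next at 356.1 CPM. Pgf in CD44Neg replicate 3 was 1.858 CPM, with 0 counts in the other 9, so any count at all would have met the criterion and it is not counted with the other two. These values come from E11 libraries.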

How the results depend on the processing

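Each member in each comparison, recomputed under each alternative, gave 1468 log2 fold changes, of which 1325 kept both direction and side of the threshold, 55 lost a call, 27 gained one and 61 turned sign. The number of members called moved by over 1.5 times as follows. CD44LoKitNeg against CD44Neg went from 5 to 1 with E11 libraries alone and to 0 with E10 libraries alone, where fewer libraries enter. CD44LoKitPos against CD44LoKitNeg went from 3 to 5 with DESeq2's Wald test or an adjusted p of 0.05 and to 1 at E10 alone. In CD44Neg, E10 against E9.5 went from 0 to 1 with DESeq2's Wald test. E11 against E9.5, and the stage dependence of CD44LoKitNeg against CD44Neg, went from 0 to 1 without the filter, with DESeq2's Wald test or with an adjusted p of 0.05. With each library left out, the members called were 4 to 5 (CD44LoKitNeg against CD44Neg), 0 to 5 (CD44LoKitPos against CD44LoKitNeg), 1 to 6 (CD44LoKitPos against CD44Neg), 3 to 4, 4 to 6 and 4 to 5 (CD44High against CD44LoKitPos, CD44LoKitNeg and CD44Neg), 1 to 2 (E11 against E10 in CD44LoKitNeg) and 0 in the rest. Where this left a lone library in an arm, it was assumed to vary like the others. Log2 fold changes that turned sign, none of them called, were those of Vegfb (0.013 with DESeq2 size factors, 0.010 with its Wald test, 0.0092 with stage as a covariate, 0.98 at E10 alone), Flt1 (-0.26 with stage as a covariate, -0.0066 with all 22 libraries, -0.83 at E10 alone) and Kdr (0.058 at E11 alone) in CD44LoKitNeg against CD44Neg. The same held for Vegfb in CD44LoKitPos against CD44LoKitNeg (-0.16) and Vegfa against CD44Neg (-0.48), both at E10 alone, and for Pgf in CD44High against CD44LoKitNeg at E11 alone (0.31). With libraries left out in turn, sign turned in CD44LoKitNeg against CD44Neg for Flt1 (-0.19 to 0.19) and Vegfb (-0.21 to 0.15), in CD44LoKitPos against CD44LoKitNeg for Nrp2 (-2.81 to 0.75), and against CD44Neg for Pgf (-1.15 to 5.10) and Vegfa (-0.92 to 0.54). In CD44High it turned against CD44LoKitPos for Nrp1 (-1.36 to 1.63), Nrp2 (-0.020 to 3.38) and Pgf (-0.23 to 4.58), and against CD44LoKitNeg for Nrp2 (-0.13 to 1.47) and Pgf (-2.43 to 0.26). Between stages it turned for Vegfa (-2.01 to 0.15) and Vegfc (-0.13 to 0.54) from E9.5 to E10, Nrp1 (-0.24 to 0.21), Vegfa (-1.98 to 2.04) and Vegfb (-1.74 to 0.69) from E10 to E11 and Nrp1 (-0.32 to 0.13), Vegfa (-2.51 to 0.72) and Vegfb (-2.33 to 0.10) from E9.5 to E11 in CD44Neg, Vegfc from E10 to E11 in CD44LoKitNeg (-0.042 to 1.38), and Vegfb (-1.82 to 0.61) and Vegfc (-0.43 to 0.99) in the stage dependence. The cause was not tested. Over all genes, DESeq2's Wald test called 1749 against edgeR's 1121 in CD44LoKitNeg against CD44Neg (126 at E11 alone, 2 at E10 alone), 1243 against 552 in CD44LoKitPos against CD44LoKitNeg (366 with stage as a covariate, 141 at E10 alone), 817 against 451 in CD44LoKitPos against CD44Neg (258 at E10 alone) and 716 against 390 in CD44High against CD44LoKitPos, while CD44High against CD44Neg went from 1864 to 1011 at E11 alone. At an adjusted p of 0.05 the population comparisons called 2217, 1619, 941, 784, 3471 (from 2067, CD44High against CD44LoKitNeg) and 2917. Between stages, edgeR, no filter, DESeq2 and an adjusted p of 0.05 called 2, 116, 231 and 105 genes (E10 against E9.5), 0, 24, 46 and 6 (E11 against E10) and 77, 279, 421 and 352 (E11 against E9.5) in CD44Neg, 77, 543, 473 and 330 in CD44LoKitNeg and 1, 190, 113 and 23 in the stage dependence. Leaving out a library gave 65 to 687 genes in CD44LoKitPos against CD44LoKitNeg (fewest without CD44LoKitPos replicate 17, and 160 without replicate 18), 159 to 630 in CD44LoKitPos against CD44Neg (fewest without replicate 18), 251 to 392 and 1334 to 2176 in CD44High against CD44LoKitPos and CD44LoKitNeg (fewest without CD44High replicate 22), 8 to 75 in CD44Neg from E9.5 to E11 and 26 to 67 in CD44LoKitNeg. DESeq2 size factors shifted the median log2 fold change of all genes by -0.134 in CD44LoKitPos against CD44LoKitNeg, and the share of calls that were higher went from 59.8% of 552 to 44.4% of 491. No paired analysis was possible because the labels number the libraries 1 to 22 through all groups, so no replicate number is shared. The date code that populations share coincides with stage, so the fits with stage as a covariate are also blocked by date. At this depth Vegfb reached at most 101 counts and Pgf at most 72 in any library, which limits the precision of their values.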

Other observations

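Over the 22 libraries and 12949 genes, the genes whose log2 CPM followed each member most closely by Pearson's r were, for Kdr, the tight junction gene Cldn5 (0.992), S100a16 (0.984) and Adgrf5 (0.982), and for Flt1, the laminin gene Lamb1 (0.99), the venous receptor gene Ephb4 (0.987) and Klhl4 (0.983). For Vegfc they were Clec14a (0.987), the arterial connexin gene Gja4 (0.987) and Ptprb (0.986), for Flt4, Plpp3 (0.957), Tmsb10 (0.956) and Bcar1 (0.955), and for Nrp1, the cytokine receptor gene Lifr (0.952), Apbb2 (0.904) and Tanc1 (0.897). For Nrp2 they were the mechanosensitive channel gene Piezo2 (0.911), 2810025M15Rik (0.907) and Kcne3 (0.907), and for Vegfa, Isl1 (0.878), Sost (0.878) and Tmed4 (0.868). Vegfb (Lyrm9 0.721, Itga2b 0.69, Rbks 0.678) and Pgf (Gm4432 0.799, Gm7173 0.747, Srpk2 0.725) had no gene this close. The libraries share population and stage, so these values describe the differences between populations.

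Within the 10 CD44Neg libraries, which share stage and depth differences, r was 0.786 between Kdr and Flt1, 0.722 between Flt4 and Nrp2 and -0.386 between Nrp1 and Nrp2. Figf, which encodes VEGF-D, the other ligand of Flt4, and was added after its values were seen, had 9 counts over CD44Neg, 33 over CD44LoKitNeg, 0 over CD44LoKitPos and 1 over CD44High.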
